A study of Mus musculus with 6 samples.

Results

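Conventional CD4 T cells are the helper lymphocytes that read peptides on MHC class II molecules, and here they were followed in single-cell transcriptomes of mouse melanoma material. They were chosen by the transcripts counted in each barcode. A unique molecular identifier (UMI) marks 1 captured molecule, and a cell was taken when it held at least 1 UMI of Cd3e or Cd3d (chains of the T cell receptor complex) and at least 1 of Cd4. It also had to hold none of Foxp3 (the factor of regulatory T cells), Cd8b1, Il17a, Cd163l1 (a gamma-delta T cell gene) or Csf1r (a macrophage receptor), and fewer than 2 UMIs of the proliferation genes Mki67 and Top2a together. This gave 230 cells of the 6364 kept in all. They were set against 45 regulatory T cells, which held Foxp3, and 425 CD8 T cells, which held Cd8b1 and neither Cd4 nor Foxp3.

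In the labels the source is YUMM2.1, a mouse melanoma line, and the groups are named by its Bmal1 status. Bmal1 is the clock transcription factor encoded by Arntl. In the study, lines of these names were made by lentiviral transduction both in unedited YUMM2.1 and in 1 of its clones without Bmal1. Empty vector (EV) cells received a vector without insert and Bmal1 WT cells an added copy of wild-type Bmal1. The labels of these libraries name no knockout and do not say which of the backgrounds they come from, so whether the groups share a knockout is not given. The vector belongs to the melanoma cells and not to T cells. The labels do not say which tissue the T cells came from, or give the age of any mouse, the time of day or any further treatment. Each group was 1 droplet library in which 3 hashtag antibodies marked the replicates (h1, h7 and h8 in EV, h3, h5 and h9 in Bmal1 WT), so group and library cannot be told apart. The labels name each hashtag separately but do not say that they were separate animals, and p-values measure the spread between hashtags, which may be technical. The remaining group, Bmal1 bHLH, was not analysed here because its files repeated those of Bmal1 WT.

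The sequences that assigned each cell to its replicate are the oligonucleotides on the hashtag antibodies, given 5′ to 3′. No part of them is in capitals because the whole sequence is the tag. They are shown because every comparison between EV and Bmal1 WT rests on them.
EV h1: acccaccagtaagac
EV h7: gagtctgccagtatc
EV h8: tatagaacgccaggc
Bmal1 WT h3: cttgccgcatgtcat
Bmal1 WT h5: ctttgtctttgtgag
Bmal1 WT h9: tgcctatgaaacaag

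Among cells with exactly 1 hashtag, 51, 43 and 69 conventional CD4 cells carried h1, h7 and h8 (EV), and 33, 11 and 7 carried h3, h5 and h9 (Bmal1 WT). A further 14 EV cells and 1 Bmal1 WT cell carried several hashtags and 1 EV cell carried none, and these entered no replicate. Summed over the cells of a hashtag, the depth ran from 33658 UMIs in Bmal1 WT h9 to 335138 in EV h8. The smallest sum is 7 cells, so single cells weigh most in h9 and h5. The median cell held 3488 UMIs in EV and 4982.5 in Bmal1 WT, against 5762 and 6357 for regulatory and 5071 and 5865 for CD8 T cells. No barcode was shared between the libraries among the 230 cells.

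CD4 helper cells leave the thymus as naive cells that circulate between blood and lymph nodes, held in that state by the transcription factor Tcf7 and guided by the receptors S1pr1 and Ccr7. After a T cell receptor signal together with costimulation through Cd28, they divide and take up effector programmes named after their factors and cytokines: Th1 (Tbx21, Ifng), Th2 (Gata3, Il4, Il13, Il5) and Th17 (Il17a, Il17f). Regulatory T cells are the Foxp3 branch of the same lineage, and they restrain the others through Ctla4, Il2ra and Il10.

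The gate passed 281 EV and 110 Bmal1 WT cells with Cd3 and Cd4 UMIs, and the steps on Foxp3, Cd8b1, Il17a and Cd163l1, Csf1r and proliferation left 178 and 52. The Foxp3 step took most, from 281 to 229 in EV and from 110 to 73 in Bmal1 WT. Inside the threshold, 59 EV and 15 Bmal1 WT cells passed with a single Cd4 UMI, while 80 and 23 held 3 or more. Just outside, 26 EV and 13 Bmal1 WT cells were left out for proliferation UMIs alone, and 509 and 142 cells with Cd3 UMIs had neither Cd4 nor Cd8b1. A helper cell whose Cd4 was not captured, and a regulatory cell whose Foxp3 was not captured, are therefore on the wrong side of the gate.

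The given markers were found in most of the cells, and in regulatory cells as well. Cd28 was found in 85.7% of the 230 cells, Icos in 81.3%, Il7r (the interleukin 7 receptor) in 68.7% and S1pr1 in 57%. Fibroblasts gave a reference for free RNA: 258 cells with at least 10 Col1a1 UMIs and no Ptprc or Cd3. Their median was 15711 UMIs in EV and 23667 in Bmal1 WT. In them the shares were 1.16%, 0.388%, 0.388% and 8.14%. For S1pr1 the share stood above those of the other markers, and whether it is free RNA or the fibroblasts' own was not tested. When every cell was thinned to 1500 UMIs, which left 215 of the 230, the shares for Cd28, Icos, Il7r and S1pr1 were 65.1%, 60.9%, 56.7% and 42.3%, against 0.395% of fibroblasts for S1pr1. Of the 45 regulatory cells 95.6% held Icos, 73.3% Il7r, 71.1% Cd28 and 17.8% S1pr1, and thinned the shares were 75.6%, 35.6%, 40% and 6.67%. Icos was thus found at a higher share in regulatory than in conventional cells, and Il7r without thinning too. The markers were named with these data in view and describe the cells without testing them.

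Genes of other cell types were low in sum, and 4 single cells stood out with at least 10 UMIs of Col1a1 or H2-Aa. Single UMIs of other types were found in more cells. A gate without any UMI of Cd79a, Ms4a1, C1qa, Lyz2, Col1a1, Trdc or Ncr1 kept 159 of 178 EV and 47 of 52 Bmal1 WT cells. Of 8 B cell genes 3 had any UMI, with none of Cd79a, Cd79b, Iglc2 and Ms4a1, and the list summed to 15.7 to 205 UMIs per 1000000 of the hashtag sum (CPM). Of 7 NK cell genes Klra4 had none, with 29.3 to 385 CPM, and 3 of 8 melanoma genes had any UMI. The fibroblast list of 6 genes lay between 0 and 113 CPM in 5 hashtags and at 16219.6 CPM in Bmal1 WT h5. There, 1 cell of 43571 UMIs supplied 42.6% of the h5 sum and held 374 Col1a1, 425 Sparc and 423 Dcn UMIs beside 1 Cd4 and 4 Cd3e. Without it the fibroblast list in h5 fell to 17 CPM. In EV, 3 cells held 43 to 122 UMIs of H2-Aa (an MHC class II chain), 2 of them in h1 and 1 with several hashtags. The myeloid and antigen presentation list summed to 2727 CPM in EV h1, 169 CPM without those cells, and 119 to 606 CPM elsewhere. They are called mixed cells below, and the main values include those that carry 1 hashtag.

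The T cell receptor genes were present in every hashtag. Trac, the alpha chain constant region, was at 822 ± 254 CPM (SD, n = 6), Trbc2 at 868 ± 161 and Thy1 at 655 ± 209.9. Cd28 was at 952, 978 and 835 CPM in EV h1, h7 and h8 and at 811, 518 and 832 in Bmal1 WT h3, h5 and h9. Il7r was at 702, 1041 and 1095 and 372, 664 and 1694 CPM, with the highest value in h9 and the lowest in h3, both Bmal1 WT. S1pr1, the sphingosine receptor used to leave tissue (build GRCm38, chromosome 3:115710433-115715072, minus strand), was at 674, 973 and 561 CPM in EV and 490.2, 87.9 and 891 in Bmal1 WT. The low S1pr1 value belongs to h5, where 1 mixed cell makes up 42.6% of the UMIs. Without the mixed cells h5 was at 102 CPM for S1pr1, 902 for Cd28 and 1072 for Il7r, and h1 at 745, 1026 and 736.

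**Figure D1:**
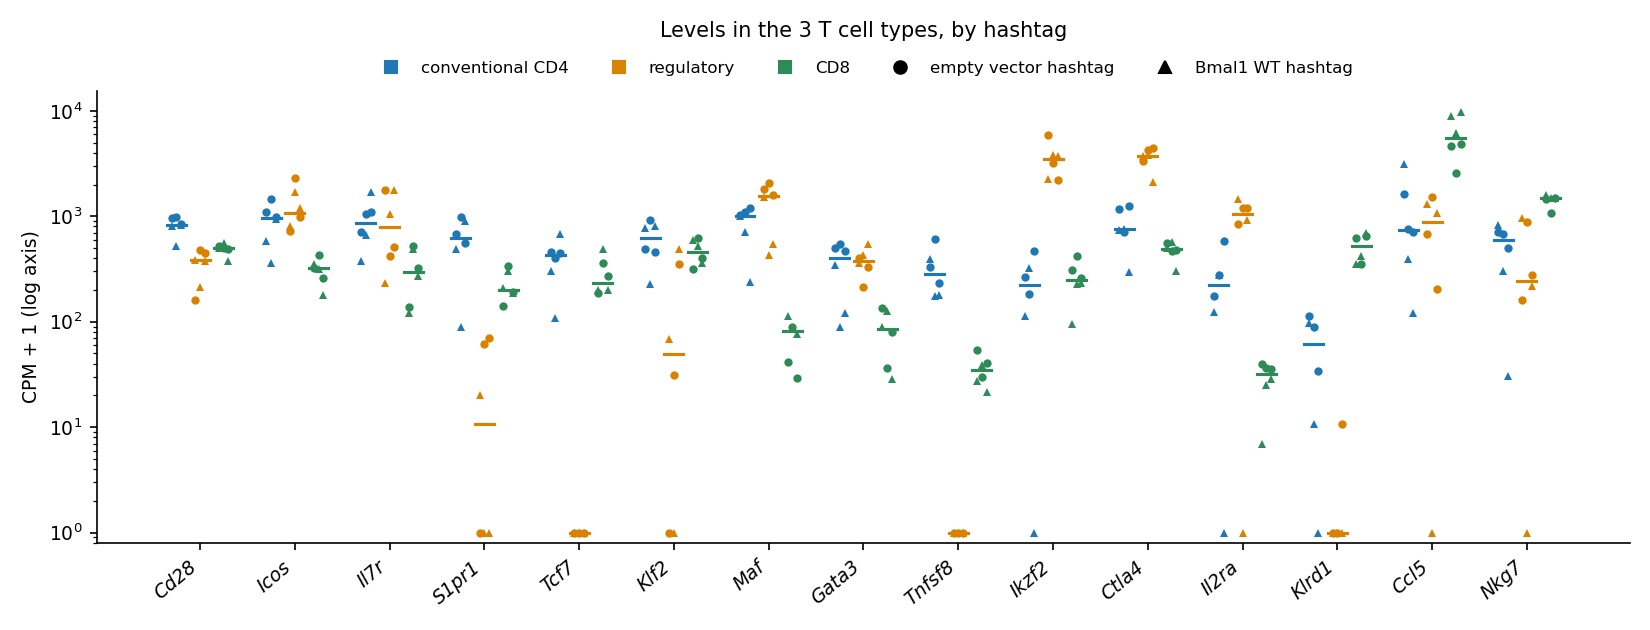
Level of 15 genes in conventional CD4, regulatory and CD8 T cells, as CPM plus 1 on a log axis, with 1 point per hashtag (circles EV, triangles Bmal1 WT) and a bar at the median of 6. Tcf7 and Tnfsf8 had no UMI in regulatory cells, Ikzf2 was at 2201 to 5857 CPM in regulatory and 0 to 465 CPM in conventional cells, and Maf lay in every conventional sum above every CD8 sum.

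Transcripts of effector cytokines were found in few cells. Gata3, the Th2 factor, was found in 53% of the cells (2.71% of fibroblasts), but Il4 in only 12 cells (5.22%, fibroblasts 0.388%), Il13 in 16 (6.96%, fibroblasts 0%) and Il5 in 6. Ifng, the Th1 cytokine, was found in 44 cells (19.1%, fibroblasts 0.388%) and its factor Tbx21 in 43. Il22 and Il17f were found in 0 of 230 cells, which allows shares of cells with a UMI of up to 1.69% in EV and 5.77% in Bmal1 WT. Since the gate had left out cells with Il17a or Cd163l1, this absence may be set by the choice of cells. Cxcr5, the receptor of follicular helper cells, was found in 5 cells and Il21 in 8.

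The cytokine counts were uneven. Of 241 Il10 UMIs 76 came from 1 cell, of 110 Il4 UMIs 24, and of 253 Il1rl1 UMIs 45. Il10, the inhibitory cytokine (chromosome 1:131019845-131024974, plus strand), was found in 16 cells (6.96%, fibroblasts 1.16%). Il1rl1, the receptor for interleukin 33 (chromosome 1:40429570-40465415, plus strand), was found in 18 cells (7.83%, fibroblasts 0%). Lag3 was found in 45 cells, with 99 of its 344 UMIs in 1 of them. Pdcd1, the PD-1 receptor, was found in 89 cells (38.7%, fibroblasts 0.388%).

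The 230 cells were then divided by the UMIs of single genes, which shows what the same cells carried together. Cells with S1pr1 were 131 of 230, with 64.7%, 60.5% and 52.2% in EV h1, h7 and h8 and 51.5%, 45.5% and 71.4% in Bmal1 WT h3, h5 and h9. Their median depth (4101 UMIs) was close to that of the other 99 (4037). Tcf7 was found in 75.6% of the S1pr1 cells and 25.3% of the others, Klf2, which drives S1pr1 transcription, in 75.6% and 28.3%, and Il7r in 79.4% and 54.5%. The lymph node homing receptor Ccr7 was found in 29% of S1pr1 cells against 8.08% of the others. Pdcd1, Cxcr6 and Lag3 ran the other way, at 24.4%, 26% and 3.05% in S1pr1 cells against 57.6%, 64.6% and 41.4%. Thinned to 1500 UMIs, Tcf7 was at 52.7% against 25.8%, Klf2 at 69.2% against 23.4% and Lag3 at 1.10% against 21%. None of the 12 Il4 cells or the 16 Il13 cells held an S1pr1 UMI. These are descriptions of cells pooled over hashtags and no test was made over cells.

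Il4 and Il13, the Th2 cytokines, lie near each other on chromosome 11 (Il4 at 11:53602982-53618669 and Il13 at 11:53631324-53634702, both on the minus strand). Cells with either were 20 (15 EV, 5 Bmal1 WT) and were deeper than the rest, with medians of 9539.5 and 3949 UMIs. Il2ra was found in 19 of the 20 (95%, against 14.3% of the other 210), and thinned to 1500 UMIs in 90% against 7.80%, with 10 of the 20 cells left. Gata3 was found in 17, Lag3 in 15, Cx3cr1 (the fractalkine receptor) in 12, Pparg, a nuclear receptor, in 9, Il1rl1 in 8 and Il10 in 7 of the 20. The shares in the other cells were 50% for Gata3, 14.3% for Lag3, 11% for Cx3cr1, 3.33% for Pparg, 4.76% for Il1rl1 and 4.29% for Il10. Tcf7 was found in 0 of the 20 and in 59% of the others. Cd28 was found in 8 of the 20, against 90%, although these cells were the deeper ones, and Trac in 16 of the 20.

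The 18 Il1rl1 cells (17 EV, 1 Bmal1 WT) were likewise deeper, with a median of 6710 UMIs against 4021.5. They held Gata3 in 16 and Pparg in 10, against 50% and 2.83% of the other cells, and Ifng in 1. The 16 Il10 cells (14 EV, 2 Bmal1 WT) were no deeper than the rest (3661 against 4073 UMIs). Maf, a factor that activates Il10, was found in 16 of the 16 and in 64.5% of the others, and Lag3 in 14 of the 16 against 14.5%. Tcf7 was found in none of the 16, against 57.9%. The Ifng or Tbx21 cells, 69 in number (49 EV, 20 Bmal1 WT), held the cytotoxic granule gene Nkg7 in 75.4% and Ccl5 in 58%, against 36.6% and 29.2%. In them S1pr1 was found in 49.3% against 60.2%.

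**Figure D2:**
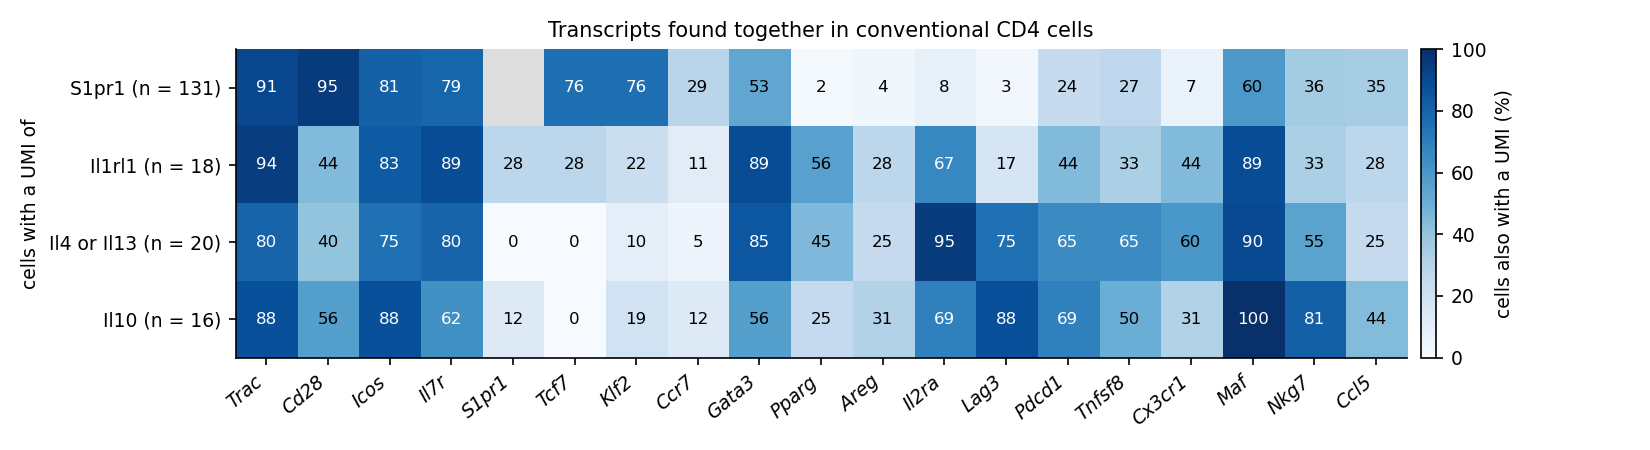
Percent of cells with at least 1 UMI of 19 genes, among conventional CD4 cells with S1pr1 (131 cells), Il1rl1 (18), Il4 or Il13 (20) and Il10 (16). Tcf7 was found in 75.6% of S1pr1 cells and in none of the Il4 or Il13 or the Il10 cells, while Il2ra was found in 8.40% of S1pr1 cells and 95% of Il4 or Il13 cells.

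Against regulatory T cells of the same hashtags, conventional CD4 cells had higher Tcf7 and Bcl2 (a survival factor) and lower Ikzf2 and Ctla4. The comparison asks what separates the branches beyond Foxp3, on UMIs summed per hashtag with the hashtag as a block in edgeR's quasi-likelihood test, with the genes of the gate left out. Fold changes are log2 of conventional over regulatory, ± SE. Of 4558 genes tested, 122 were higher (2.68%) and 114 lower (2.5%) at an adjusted p under 0.05, with a median of 0.02 over all genes. The regulatory sums hold few cells: 4, 6 and 15 in EV h1, h7 and h8 and 11, 1 and 3 in Bmal1 WT h3, h5 and h9.

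Of the 13 genes tested in the naive and recirculating list, 8 rose, the given marker S1pr1 among them, and 0 fell, with a median of 1.64. Tcf7 (chromosome 11:52252371-52283014, minus strand) was at 456, 403 and 448 CPM in EV and 299, 107 and 683 in Bmal1 WT conventional cells and at 0 in regulatory cells of every hashtag. With 427 UMIs against 0, it was at least 37.6-fold higher, taking 3 counts over the regulatory group as the floor (adjusted p = 2.47e-14). S1pr1 was at 613 ± 318 CPM (SD, n = 6) in conventional and at 0, 60.2 and 68.5 CPM in EV and 19.3, 0 and 0 in Bmal1 WT regulatory cells, so every conventional value lay above every regulatory one. Its log2 fold change was 4.08 ± 0.44 (adjusted p = 3.89e-13). S1pr1 is a given marker chosen on these cells, so this is no independent evidence. Klf2 rose by 2.12 ± 0.39, Satb1, a chromatin organiser, by 1.86 ± 0.39 and Ccr7 by 3.04 ± 0.66 (2.67 ± 0.68 without the mixed cells). Foxp1, Lef1 and Igfbp4 rose by 1.62, 1.56 and 2.89, and none of these 3 passed without Bmal1 WT h3. Klf2 (1.79, adjusted p = 0.0919) and Satb1 did not pass without the hashtag as a block, a fit in which 136 genes passed in place of 236.

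Other genes higher in conventional cells were Tnfsf8, the CD30 ligand, which had no regulatory UMI and was at least 32.5-fold higher, Bcl2 at 454 ± 154 against 38.1 ± 62.3 CPM (log2 fold change 3.62 ± 0.47), and Tbc1d4, a regulator of glucose transporter traffic, at 4.12 ± 0.56. Cd28, also a given marker and so no independent evidence, rose by 1.23 ± 0.29 (adjusted p = 0.00238), from 345 ± 129.8 to 821 ± 164 CPM. Cd40lg, the help signal to B cells, rose by 3.88. Icos was at 907 ± 391 CPM against 1278 ± 605 and Il7r at 928 ± 459.7 against 961 ± 687, and neither passed (log2 fold changes -0.39 ± 0.26 and 0.23 ± 0.28, adjusted p = 0.558 and 0.811). Of 7 Th2 genes tested, Il4 and Il13 passed, each with no regulatory UMI and at least 8.54-fold and 5.20-fold higher in pooled UMIs. These bounds take no account of the few cells behind them, 20 of 230 conventional cells with either gene. Both genes reached the UMIs needed for the test through conventional cells alone, so they could not have come out lower there. Il1rl1 was at 138 ± 186 against 476 ± 716 CPM and did not pass. DESeq2 gave no adjusted p for Il4, Il13 or Cd40lg.

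Of 16 regulatory T cell genes tested, 13 fell and 1 rose, with a median of -2.17. Ikzf2 (Helios, chromosome 1:69531214-69687245, minus strand) was at 262, 183 and 465 CPM in EV and 113, 322 and 0 in Bmal1 WT conventional cells and at 5857, 3192 and 2201 and 2236, 3812 and 3726 in regulatory cells. The ranges did not overlap and the log2 fold change was -3.96 ± 0.28 (adjusted p = 1.14e-24). An Ikzf2 UMI was still found in 29.6% of conventional cells, against 97.8% of regulatory cells. Ctla4, the inhibitory receptor for B7 molecules, changed by -2.19 ± 0.22 and Il2ra by -2.19 ± 0.33. Tnfrsf9 (4-1BB) was at 207 ± 146 against 1209 ± 830.3 CPM (log2 fold change -2.40 ± 0.32). Klrg1, Itgae and Lrrc32 were also lower, with log2 fold changes of -6.46, -3.66 and -3.73. The list's 1 gene higher in conventional cells, Nrp1, at 1.54 (adjusted p = 0.0106), marks thymus-derived regulatory cells and did not pass without EV h7 or without Bmal1 WT h3.

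Chemokine receptors split, with 3 of 13 higher (S1pr1, Ccr7 and Gpr183, 2.26) and 3 lower (among them Ccr2, -2.84, and Ccr9, -5.64). Of the receptors for TGF-beta, Tgfbr2 rose by 1.58 and Tgfbr1 fell by 1.73. Of 9 costimulatory genes 2 rose (Cd28 and Cd40lg) and 3 of the TNF receptor family fell, Tnfrsf4 by 2.15, Tnfrsf9 and Tnfrsf18. Areg, the growth factor of tissue-repair regulatory cells, was at 208 ± 197 against 729.6 ± 673 CPM (-1.97 ± 0.36, adjusted p = 1.73e-05) and did not pass without the block. Il10 was at 120.3, 1144 and 176 CPM in EV and 183, 0 and 0 in Bmal1 WT regulatory cells, a range that overlaps that of conventional cells, and 31.1% of regulatory cells held it. Gpr183 did not pass without EV h8, Gpr183 and Tgfbr2 not without Bmal1 WT h3, and Tgfbr1 not without EV h1 or without EV h7.

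Among the remaining lists with a gene tested, 1 of 15 T cell receptor genes rose (Trbc1, 1.35, not without EV h7) and 0 of 3 Th17 genes changed. Of 11 checkpoint genes 3 fell and 0 rose, with a median of -0.49. Of 8 clock genes 1 rose, Hlf (3.30), which did not pass without EV h8. Of the myeloid list, Cd74 (-2.98) and H2-Ab1 (-2.53) were lower in conventional cells. H2-Ab1 was at -0.31 without EV h8 and turned to 0.35 without cells holding markers of other types. Of the fibroblast list, Sparc (2.89) and Dcn (3.81) were higher, with 425 and 423 UMIs of these in 1 cell of h5, and neither passed with DESeq2, where Dcn turned to -0.53. Without the mixed cells none of the 6 fibroblast genes reached the 50 UMIs needed for the test. The part of these cells in the other calls was measured by leaving them out, which gave 262 calls in place of 236. With TMM scaling the median over all genes moved from 0.02 to 0.37 and the split became 296 higher and 60 lower. No gene named above changed sign under TMM, and Tnfrsf18 (-1.30 with total scaling) and Tgfbr1 no longer passed.

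Genes of cytotoxic, B cell and stress lists also passed, in both directions. Of 8 cytotoxic genes 2 rose, Gzma (3.86) and Klrd1 (3.85), and 2 fell, Cst7 (-1.62) and Gzmb (-2.10). Gzma, a granzyme, was at 0, 173 and 298 CPM in EV and 0, 19.5 and 29.7 in Bmal1 WT conventional cells, with UMIs in 7 cells, and the NK cell list of which it is the tested gene summed to 0 to 40.1 CPM in regulatory against 29.3 to 385 in conventional cells. It did not pass without the block and turned to -0.58 with hashtags assigned by centred log counts. Ighm, the IgM heavy chain and the B cell gene tested, was lower (-3.17 ± 0.40, adjusted p = 3.60e-10) in 6 of 6 hashtags. The B cell list summed to 162 to 4024 CPM in regulatory against 15.7 to 205 in conventional cells, with 3 of its 8 genes with a UMI in regulatory cells, and its part in other results was not tested. Of 14 immediate early and dissociation stress genes Fos (1.49) and Hspa1b (2.41) rose and Fosb (-1.38) fell, and none of these 3 passed without the block or with DESeq2. Klrd1 did not pass without Bmal1 WT h3, Cst7 not without EV h7 or EV h8, Gzmb not without EV h7, Fos not without EV h7 or Bmal1 WT h3, and Fosb not without EV h7, EV h8, Bmal1 WT h3 or Bmal1 WT h5. Cst7 and Fosb also did not pass with TMM.

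Of 8 Tfh genes Slamf6 rose by 2.84 and Izumo1r, the folate receptor 4 gene, changed by -1.85. Of 12 retention genes Vps37b rose by 1.79 and Nfkbia, Il2ra and Itgae fell, the first with a log2 fold change of -1.50. Of 15 interferon-stimulated genes 1 rose, Irf7, at 56.5, 73.2 and 89.5 CPM in EV and 39.4, 166 and 0 in Bmal1 WT and at 0 in regulatory cells of every hashtag. Of 9 Th1 genes Hopx passed at -1.09 (adjusted p = 0.0450), which did not hold with TMM, with DESeq2, without the block, or without EV h1, EV h8, Bmal1 WT h3 or Bmal1 WT h9.

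Against CD8 T cells, conventional CD4 cells had higher Th2 genes, costimulatory receptors and Maf, and lower cytotoxic genes and killer lectin receptors. Of 7184 genes, 259 were higher (3.61%) and 142 lower (1.98%), with a median of 0.03 over all genes. Without EV h1 the total of 401 became 250, and without EV h8 it became 218. With TMM scaling the median was -0.07 and the split 203 higher and 231 lower.

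The 4 given markers outside the gate rose together, which is no independent evidence since they were chosen on these cells. Il7r was at 928 ± 459.7 CPM (SD, n = 6) against 309.7 ± 171 (log2 fold change 1.63 ± 0.22), Icos at 907 ± 391 against 309 ± 85.5 (1.47 ± 0.21), and Cd28 at 821 ± 164 against 491 ± 61.2 (0.72 ± 0.16). S1pr1 was at 613 ± 318 against 226 ± 74.7 (1.37 ± 0.29, adjusted p = 0.00448) and did not pass without EV h1 (1.13, adjusted p = 0.0644). Of the 15 naive list genes, 2 rose, both of them given markers (Il7r and S1pr1), and 1 fell, with a median of 0.05. Tcf7, at 399 ± 191 against 283 ± 119 CPM, differed by 0.49 ± 0.28 and did not pass (adjusted p = 0.467).

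Of 9 costimulatory genes tested 6 rose, among them the given markers Cd28 and Icos, and 1 fell. Tnfrsf4 (OX40) was at 298 ± 141 against 40.8 ± 24.8 CPM, Cd40lg rose by 3.58 and Tnfrsf18 by 1.35, while Cd27 fell (-0.98) and did not pass without any 1 of the EV hashtags. Maf was at 1016, 1104 and 1205 CPM in EV and 1014, 713 and 238 in Bmal1 WT, against 28.4 to 112 in CD8 cells, with every conventional value above every CD8 one (log2 fold change 3.81 ± 0.29, adjusted p = 1.75e-08). Tnfsf8 rose by 3.03 ± 0.25, Ramp3, a partner of calcitonin family receptors, by 4.30 ± 0.52, and Ramp1 by 2.77. Of the regulatory list 10 of 14 rose and 0 fell, among them Il2ra (3.06), Izumo1r, the folate receptor 4 (2.58), and Ctla4 (0.76), which did not pass without EV h1 or without EV h8.

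Of 7 Th2 genes tested 5 rose and 0 fell, with a median of 5.33. Il4 and Il13, which are among the 5, had no UMI in CD8 cells. They reached the UMIs needed for the test through conventional cells alone, so they could not have come out lower. The count and the median are partly set by this. Il4 had 110 UMIs over the 230 cells and was at 177, 109.9 and 89.5 CPM in EV and 11.3, 0 and 0 in Bmal1 WT. CD8 sums held none, which makes the pooled UMIs of conventional cells at least 73.2-fold higher (adjusted p = 1.85e-06). Such a bound counts UMIs and takes no account of how few cells hold them, here 12 for Il4 and 16 for Il13. Il13, also at 0 in CD8 cells, was at least 44.5-fold higher. Il1rl1 was at 157, 146 and 489 CPM in EV and 33.8, 0 and 0 in Bmal1 WT, a log2 difference from CD8 cells of 7.13 ± 0.51, and Gata3 was at 342 ± 196 against 81.2 ± 44 CPM (2.03 ± 0.30, adjusted p = 1.04e-04). Ccr4, a receptor of skin-homing and Th2 cells, rose by 5.33. DESeq2 did not call Il4 (adjusted p = 0.557), Il13 (0.337) or Il1rl1 (0.117). Il10 rose by 5.59 ± 0.68, was higher in 4 of 6 hashtags and was not called by DESeq2 either (0.0558). The 12 Il4, 16 Il13, 18 Il1rl1 and 16 Il10 cells described above carry these values.

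Of 16 cytotoxic genes 13 fell and 0 rose, with a median of -2.27. Klrc1 (NKG2A) was at 9.83 ± 9.20 CPM against 273 ± 64.8 (-4.47 ± 0.29, adjusted p = 1.67e-09). Klrk1, Klre1, Klrc2 and Cd244 fell by 3.71, 3.73, 4.19 and 4.92 on the log2 scale. Perforin (Prf1) fell by 3.03, granzyme B (Gzmb) by 2.38 and Ccl5 by 2.55. Ccl5 was nonetheless at 1618, 764 and 713 CPM in EV and 3116, 391 and 119 in Bmal1 WT conventional cells, a wide spread in which h3 stood highest. Cd8a, the partner chain of the gate gene Cd8b1, was at 1.87 ± 2.90 against 801 ± 152 CPM. Of 10 Th1 genes 1 rose and 2 fell, and Ifng did not pass, at 69.8 ± 54.8 against 128 ± 73.4 CPM (-0.79 ± 0.28, adjusted p = 0.114).

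The remaining lists moved by few genes. Of 9 Tfh genes 4 rose and 0 fell: Maf, Izumo1r, Slamf6 (1.40) and Tox2 (2.21). All 3 Th17 genes tested rose, Rora and the transmembrane genes Tmem176a (2.52) and Tmem176b (1.94). Il17a was a gate gene. Of 12 retention genes 3 rose, Il2ra, Cd44 (0.69) and Nfkbia, while Itga1, the collagen-binding integrin chain, fell by 1.58. Of 16 interferon-stimulated genes Ifi27l2a (1.08) and Ly6a (1.83) rose, and of 14 cytokine receptors Il6ra (1.90), Il7r and Il2ra rose while Il2rb fell by 0.75. Of 16 immediate early and dissociation stress genes Junb (0.68), Fos and Btg2 rose, with a median of 0.02 for the list. Of 13 checkpoint genes 3 rose and 2 fell, among them Cd160, by 3.17, and Pdcd1 was at 213 ± 86.6 against 329 ± 99.6 CPM (-0.54 ± 0.21, adjusted p = 0.189). Tox2 did not pass without EV h7, Tmem176b not without EV h1 and Cd44 not without EV h8. Itga1, Fos and Btg2 did not pass without any 1 of the hashtags other than Bmal1 WT h5.

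Clock genes were listed because the groups differ in Bmal1. Of 10 tested against CD8 cells, 3 rose and 0 fell, with a median of 0.74. Hlf, a clock output factor, rose by 4.90 ± 0.63, Rora by 1.69 ± 0.25 and Arntl by 1.41 ± 0.38 (adjusted p = 0.0289). Arntl was at 36.3, 57.5 and 50.7 CPM in EV and 56.3, 78.2 and 89.1 in Bmal1 WT conventional cells and at 18.5 ± 9.0 in CD8 cells, and it did not pass without EV h7, EV h8, Bmal1 WT h3 or Bmal1 WT h9. The 5 fibroblast genes tested were higher in conventional cells in edgeR and not called by DESeq2, and 99.1% of Dcn and 96.4% of Sparc UMIs lay in the 1 cell of h5. Without the mixed cells 482 genes passed in place of 401.

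**Figure D3:**
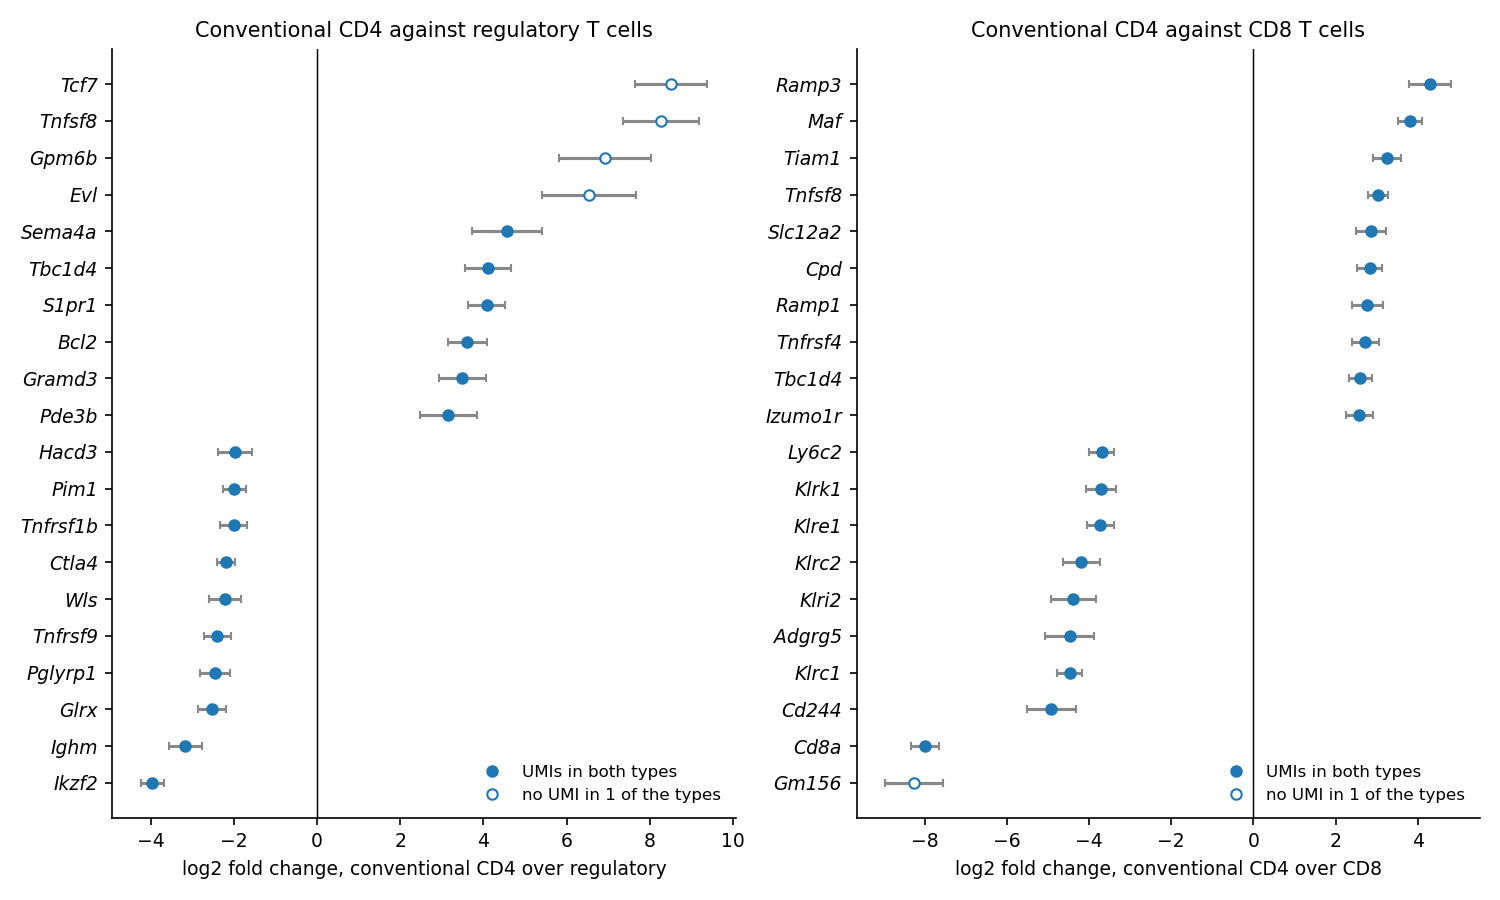
Log2 fold change of conventional CD4 cells over regulatory (left) and CD8 (right) T cells for the 10 genes of largest change in each direction that passed with the same sign in all 6 hashtags, with SE bars. Open circles mark genes without a UMI in 1 of the types, whose fitted value is no bound. Against regulatory cells Ikzf2 stood at -3.96 and S1pr1, a given marker, at 4.08, and against CD8 cells Klrc1 at -4.47 and Maf at 3.81.

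EV and Bmal1 WT were compared over hashtags, first by the share of conventional CD4 cells. Of all cells with 1 hashtag they made up 3.64% in EV h1 (95% Clopper-Pearson interval 2.72% to 4.75%), 6.18% in h7 (4.51% to 8.23%) and 6.14% in h8 (4.81% to 7.71%). In Bmal1 WT they made up 4.13% in h3 (2.86% to 5.74%), 2.22% in h5 (1.11% to 3.94%) and 2.15% in h9 (0.868% to 4.37%). The intervals cover counting error only. The means were 5.32% ± 1.46 and 2.83% ± 1.12 (SD over 3 hashtags each), and h3 of Bmal1 WT lay above h1 of EV. A 2-sided exact permutation test gave p = 0.2, where 0.1 is the smallest that 3 against 3 allow, so the threshold could not be reached. Adjusted over the 4 shares tested, p was 0.3 in the exact permutation test.

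Of cells with Cd3 UMIs, conventional CD4 cells were 10.5%, 18.8% and 19.8% in EV and 17.0%, 9.24% and 9.09% in Bmal1 WT, with means of 16.4% ± 5.14 and 11.8% ± 4.53. Among the conventional, regulatory and CD8 cells together, the means were 40.4% ± 17.7 in EV and 26.3% ± 8.67 in Bmal1 WT. Here EV h1 stood low, at 21.2%, with 186 CD8 cells. Among conventional and regulatory cells the means were 87.5% ± 5.30 and 78.9% ± 11.3. The groups overlapped in these 3 shares, and no exact permutation p was below 0.2.

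**Figure D4:**
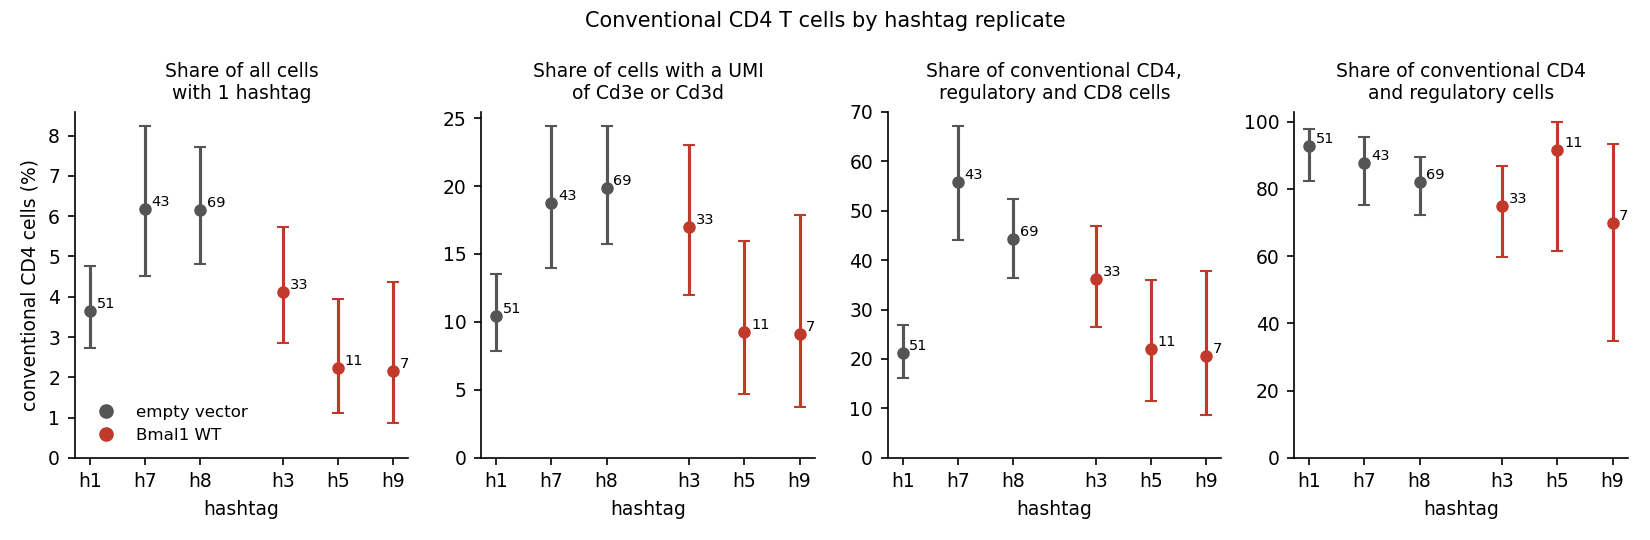
Percent of conventional CD4 T cells among all cells with 1 hashtag, Cd3 cells, the 3 T cell types and the CD4 types, per hashtag, with 95% Clopper-Pearson intervals and the number of conventional CD4 cells beside each point. In each panel at least 1 Bmal1 WT hashtag lies above the lowest EV hashtag.

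No gene differed between EV and Bmal1 WT conventional CD4 cells after adjustment. In edgeR's quasi-likelihood test 0 of 3799 genes were higher in Bmal1 WT (0%) and 0 lower (0%), with 272 at an unadjusted p under 0.05. With DESeq2, 7 passed: Cp, Cxcl9, Loxl2 and Serping1 higher in Bmal1 WT, and Cx3cr1, Il10 and Il1rl1 lower. Values per hashtag are not given here for the 4 higher genes. The part of the mixed cell that made up 42.6% of the h5 UMIs in these 4 calls was not tested. limma on the mean CPM of each hashtag's cells called 0, and edgeR without the filter on low genes called 276. Fold changes in this comparison are log2 of Bmal1 WT over EV, and the median over all genes was -0.13.

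Il10 had the smallest p. It was at 371, 371 and 155 CPM in EV h1, h7 and h8 and at 5.63, 9.77 and 0 in Bmal1 WT h3, h5 and h9, with no overlap. The Bmal1 WT values are 1, 1 and 0 UMIs. The log2 fold change was -5.40 ± 0.66 (adjusted p = 0.0732). It passed without EV h8 (adjusted p = 0.0204), without cells holding markers of other types (0.0100) and without the mixed cells (0.0199), and also with DESeq2 and without the gene filter. Over all alternatives the adjusted p ran from 5.06e-16 to 0.462 with the same sign. Cells with Il10 were 14 of 178 in EV and 2 of 52 in Bmal1 WT, and 76 of the 241 UMIs came from 1 cell. That cell lies in EV h1, which held 92 Il10 UMIs against 71 in h7 and 52 in h8. The h1 value thus rests mostly on 1 cell.

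No Th2 gene passed between the groups in edgeR's test. Il1rl1 differed by -3.85 ± 0.85 (adjusted p = 0.557), Il4 by -4.19 ± 0.72 (0.425) and Gata3 by -1.31 ± 0.44 (0.587). Of 7 Th2 genes tested 3 had an unadjusted p under 0.05, in the direction of EV, and the list's median was -1.13. Cx3cr1 was at 229.9, 256 and 254 CPM in EV and 73.2, 29.3 and 0 in Bmal1 WT (-2.38 ± 0.47, adjusted p = 0.557). Ccr2, a receptor for inflammatory chemokines, was at 145, 105 and 155 and 33.8, 29.3 and 29.7 CPM (-2.08 ± 0.37, adjusted p = 0.425). In Il1rl1, Il4, Gata3, Cx3cr1 and Ccr2 every EV hashtag lay above every Bmal1 WT one, also without the mixed cells, while Il13 overlapped. These genes were named for a small unadjusted p, so the lack of overlap is no further evidence. The share of all tested genes without overlap is not given here. In Bmal1 WT h3, h5 and h9 the counts were 2, 0 and 0 UMIs for Il4 and 6, 0 and 0 for Il1rl1. The shares of cells with a UMI did not all separate the groups as the CPM values did. These shares are without thinning, and the median conventional cell held 3488 UMIs in EV and 4982.5 in Bmal1 WT. The part of this depth difference in the shares was not tested. Cells with Il4 or Il13 were 8.43% of EV and 9.62% of Bmal1 WT cells (7.84%, 6.98% and 10.1% against 12.1%, 9.09% and 0%), and Cx3cr1 cells were 14% of EV and 19.2% of Bmal1 WT cells (9.80%, 14% and 17.4% against 21.2%, 27.3% and 0%). Il1rl1 cells were 9.55% of EV and 1.92% of Bmal1 WT cells (9.80%, 6.98% and 11.6% against 3.03%, 0% and 0%) and Il10 cells 7.87% of EV and 3.85% of Bmal1 WT cells (9.80%, 4.65% and 8.70% against 3.03%, 9.09% and 0%). Of these only Il1rl1 cells had a higher share in every EV hashtag than in every Bmal1 WT one. The Bmal1 WT shares of Il1rl1 cells are 1 of 33, 0 of 11 and 0 of 7 cells. The 0 shares rest on too few cells to be told from the EV shares.

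In the other direction, Irf8, an interferon-regulated factor, was at 52.4, 26.2 and 62.7 CPM in EV and 152, 205 and 89.1 in Bmal1 WT (1.69 ± 0.40, adjusted p = 0.557). Ccl1, a chemokine for Ccr8, was at 16.1, 0 and 23.9 and 208, 215 and 0 CPM, with UMIs in 12 cells. Sparc and Serpinh1, matrix genes, had 96.4% and 86.1% of their UMIs in the 1 fibroblast-bearing cell of h5. The given markers did not pass: Cd28 differed by -0.37 ± 0.24, Il7r by -0.14 ± 0.48, S1pr1 by -0.69 ± 0.61 and Icos by -0.96 ± 0.34 (adjusted p = 0.613), with Cd28 and Icos higher in every EV than in every Bmal1 WT hashtag and Il7r and S1pr1 overlapping. Without the mixed cells Cd28 overlapped as well, at 1026, 978 and 835 against 811, 902 and 832 CPM, and its difference was -0.16 ± 0.19. Icos still did not overlap without them (-0.81 ± 0.23), and S1pr1 differed by -0.71 ± 0.43. Arntl, the gene after which the groups are named, differed by 0.52 ± 0.38 in these T cells (adjusted p = 0.799), a value that does not check the melanoma cells. In 25 gene lists 0 genes passed, with medians of -0.37 for the T cell receptor list, -0.23 for Th1, -0.44 for checkpoint, -0.22 for regulatory, 0.08 for interferon-stimulated and -0.32 for clock genes. Without the mixed cells these medians were -0.17, -0.09, -0.33, -0.12, -0.27 and -0.25, with -0.09 over all genes, and 1 gene passed, Il10 (-5.23 ± 0.72, adjusted p = 0.0200).

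**Figure D5:**
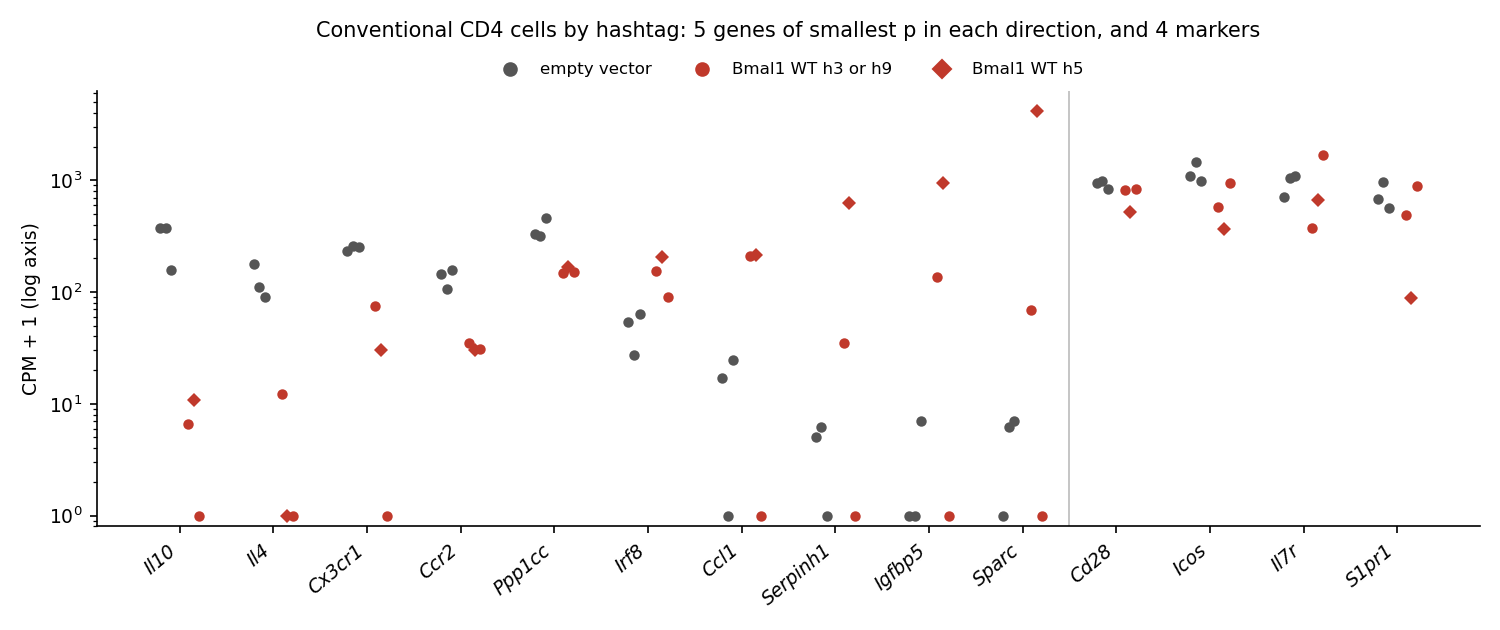
CPM plus 1 on a log axis in conventional CD4 cells for the 5 genes of smallest p in each direction between EV and Bmal1 WT and for the 4 markers, with 1 point per hashtag and a diamond for h5. Il10 was at 0 to 9.77 CPM in Bmal1 WT and 155 to 371 in EV, while Il7r and S1pr1 overlapped between the groups.

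Whether the difference between EV and Bmal1 WT, also one between libraries, varied with cell type was tested as an interaction of type and group. Against regulatory cells, 5 of 4558 genes had a larger log2 difference in conventional cells (0.11%) and 2 a smaller one (0.0439%). Against CD8 cells, 6 of 7184 were larger (0.0835%) and 1 smaller (0.0139%). Il10 was the gene smaller against CD8 cells, by -8.08 ± 1.37 (adjusted p = 0.0135): it was at 0.878, 0 and 2.19 CPM in EV and 14.7, 0 and 6.87 in Bmal1 WT CD8 cells, which is 0 to 5 UMIs a hashtag. Irf8 was larger, by 3.15 ± 0.52 (adjusted p = 0.0135), while CD8 cells held 266, 169 and 219 CPM in EV and 82.6, 43 and 151 in Bmal1 WT, the opposite order to conventional cells. Il10 did not pass without EV h1, EV h7, Bmal1 WT h3 or Bmal1 WT h9, and Irf8 not without EV h1 or EV h7. Il1rl1 was smaller against regulatory cells, by -4.09 ± 0.96 (adjusted p = 0.0239), and did not pass without EV h8 or Bmal1 WT h5. It also did not pass in edgeR's test without the mixed cells (-3.67 ± 0.92, adjusted p = 0.0686) or with DESeq2. Leaving out 1 hashtag gave 1 to 6 calls against regulatory and 0 to 30 against CD8 cells in place of 7 and 7.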

How the data were processed

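Single cells of 2 libraries (EV and Bmal1 WT) were captured by the study with the 10x Genomics Chromium 3' v3.1 chemistry. The authors deposited raw UMI counts per gene, hashtag and barcode from Cell Ranger 6.1.2 (mm10 in the submitters' processing notes), filtered to called cells and not normalized, and the sources used here do not state the use of strand. The 3 files deposited for Bmal1 bHLH equal those of Bmal1 WT and were counted once. UMI counts remove PCR copies, so overlapping genes and lost molecules, not amplification, limit them.

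Barcodes with at least 200 genes and at most 20% mitochondrial UMIs were kept. Hashtags were called per library by a 2-component Gaussian mixture on log counts (scikit-learn 1.9.0). Cells with several hashtags were left out of sums and no doublet caller was run. UMIs were summed per hashtag and cell type, scaled by total UMIs, and genes with at least 50 UMIs tested in edgeR 4.0.16 (R 4.3.3, quasi-likelihood, Benjamini-Hochberg at 0.05), with the hashtag as a block between cell types. The SE is the log2 fold change divided by the root of its F statistic. The 10 genes of the gate were left out of the tables before adjustment. Shares were tested by exact permutation (scipy 1.17.1). The test steps were run on simulated data with known changes. Those counts were drawn independently with the same dispersion for every gene, so they do not cover sums that rest on 1 cell. Alternatives were TMM, DESeq2 1.42.0, limma 3.58.1 (pseudocount 5 CPM), other gene and cell filters, another hashtag call, no block and each hashtag left out. Leaving out the mixed cells (at least 10 UMIs of Col1a1 or H2-Aa) was added after seeing the data.

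Named genes were, per direction, up to 10 of largest change among those that passed in the same direction across hashtags with at least 100 UMIs (between EV and Bmal1 WT, the 5 of smallest p), with the given markers, members of 25 gene lists with small p and 2 of highest level per list. Some genes are not reported here. Genes of few calls were otherwise named, and cytokine genes, cell classes and genes named from levels were described as further members of the lists. The cells, markers and lists were chosen with earlier results of these data known. Of 14825 gene identifiers with a UMI in these sums, 14815 matched GENCODE M21 (GRCm38), which gave the positions.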

Additional observations from a re-analysis of the deposited data

Results flagged for a closer look

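A difference here is the log2 fold change of Bmal1 WT over EV in conventional CD4 cells minus that in the other type, in edgeR's interaction test, and each gene was taken up because this difference passed the test. Against regulatory cells, Ccl1 differed by 9.58 ± 1.91 (adjusted p = 0.00251), with conventional cells at 16.1, 0 and 23.9 CPM in EV and 208, 215 and 0 in Bmal1 WT, and regulatory cells at 0, 0 and 176 and 0, 0 and 0. Ccl3, also a chemokine, differed by 8.14 ± 1.98 (adjusted p = 0.0349), with 64 of its 144 UMIs in 1 conventional cell. Penk, the enkephalin precursor, differed by 4.57 ± 1.07 (adjusted p = 0.0239), at 20.2, 15.7 and 812 and 434, 0 and 0 CPM, with 164 of 496 UMIs in 1 of 19 cells. Ifitm3 differed by 5.02 ± 1.27 (adjusted p = 0.0480) and Col1a1 by 6.57 ± 1.63 (adjusted p = 0.0429), with 148 of 217 Ifitm3 UMIs in 1 cell. Il1rl1 differed by -4.09 ± 0.96 (adjusted p = 0.0239), and Spp1 (osteopontin) by -3.55 ± 0.83 (adjusted p = 0.0239), with 763 of its 951 UMIs in 1 cell. Without 1 hashtag the sign turned for Ifitm3 (-1.40 without EV h8), Penk (-3.68 without Bmal1 WT h3) and Spp1 (0.12 without EV h1). Without the mixed cells Ccl3 (6.61 ± 2.41), Il1rl1 and Ifitm3 no longer passed, and with DESeq2 none of the 7 did. Bmal1 WT h5 holds 1 regulatory cell, and this cell enters each of these 7 differences.

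Against CD8 cells, Il10 differed by -8.08 ± 1.37 (adjusted p = 0.0135) and Irf8 by 3.15 ± 0.52 (adjusted p = 0.0135). The matrix and mesenchymal genes Dcn, Sparc, Serpinh1, Cald1 and Tm4sf1 differed by 12.18 ± 1.97 (adjusted p = 0.0135), 8.10 ± 1.5 (adjusted p = 0.0284), 7.65 ± 1.42 (adjusted p = 0.0284), 8.09 ± 1.55 (adjusted p = 0.0407) and 8.82 ± 1.70 (adjusted p = 0.0407). The largest share of their conventional UMIs in 1 cell was 99.1%, 96.4%, 86.1%, 83.1% and 69.2%, in that order. Without the mixed cells Tm4sf1 no longer passed and the other 4 were left below the filter of 50 UMIs. Groups of 3 hashtags are too small for a test of single hashtags that stand apart.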

How the results depend on the processing

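No gene passed between EV and Bmal1 WT; the number passing was 276 without the gene filter, 7 with DESeq2, 1 without cells holding markers of other types, 1 without mixed cells and 0 to 1 when 1 hashtag was left out. Against regulatory cells, 236 genes became 356 with TMM, 123 with DESeq2, 136 with at least 100 UMIs, and 158 to 248 without 1 hashtag. Without the hashtag block the counts were 136 against regulatory and 344 against CD8 cells, and 133 of the 236 and 327 of the 401 genes were called both ways. Against CD8 cells, 401 became 602 without the gene filter, 229 with hashtags assigned by centred log counts, and 218 to 478 without 1 hashtag. The other settings stayed within 1.5 times the main count in both comparisons. The number of differences called against regulatory cells, 7, became 2 with TMM, 0 with DESeq2, 1 without the gene filter, 0 with at least 100 UMIs, 4 with centred log counts, 3 with at least 2 Cd4 UMIs, 4 without other-marker cells, 3 without mixed cells and 1 to 6 without 1 hashtag. The number called against CD8 cells, also 7, became 5, 3, 29, 3, 0, 17, 4 and 9 under the same settings and 0 to 30 without 1 hashtag. The causes were not tested.

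Signs turned in few cases. Between EV and Bmal1 WT, Bst2 ran from -0.35 (without Bmal1 WT h5) to 2.78 without 1 hashtag and was -0.75 with at least 2 Cd4 UMIs and -0.20 without mixed cells, and Il7r ran from -0.88 to 0.27 (above 0 without EV h8 or Bmal1 WT h3) and was 0.008 with DESeq2. Against regulatory cells, Dcn turned to -0.53 with DESeq2, Gzma to -0.58 with centred log counts and H2-Ab1 to 0.35 without other-marker cells. In the differences against regulatory cells, Ifitm3 ran from -1.40 (without EV h8) to 9.51 and was -0.68 with at least 2 Cd4 UMIs and -3.82 without mixed cells, Penk ran from -3.68 (without Bmal1 WT h3) to 11.17 and Spp1 from -7.91 to 0.12 (without EV h1). The shares kept their direction and did not pass in any setting. No paired analysis was possible because EV and Bmal1 WT share no hashtag number. The 7 cells of h9, the 11 of h5 and the single regulatory cell of h5 limit what these sums resolve.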
